A study of Arabidopsis thaliana with 12 samples.

Results

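The late step of a light response, from 30 to 60 min of light, was examined in Arabidopsis thaliana plants of the genotype flu/ex1/ydl1. It is held in 4 of the 12 RNA-seq libraries of the series, 2 at 60 min and 2 at 30 min, chosen by the light time in the names under which the count tables were deposited, because for 8 of the 12 libraries that time and the labelled time differ. Of these 4, only 60 min replicate 1 has the same time in both, since its label reads 60 min, replicate 2. The library 60 min replicate 2 is labelled 30 min, replicate 1, the library 30 min replicate 1 is labelled 0 min, replicate 3, and the library 30 min replicate 3 is labelled 60 min, replicate 1. Times and replicate numbers below are those of the file names, and nothing in the labels says that replicates are separate plants or cultures, and the p-values then speak of spread among these libraries alone. Beside the late step stand 2 flu/ex1/ydl1 libraries at 0 min, the end of the dark period, and the 4 flu/ex1 libraries at 60 and 30 min. By the labels, plants of both genotypes were 6 d old and had grown in soil in continuous light. They had spent 4 h in darkness before light returned. All 12 libraries carry the flu and ex1 mutations, so no plant with working FLU or EX1 was at hand, and the sources give no account of how the ydl1 allele was made or in how many lines it was studied.

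FLU holds back the synthesis of chlorophyll precursors in the dark. Without it protochlorophyllide piles up, and when light returns this pigment passes its energy to oxygen, so that singlet oxygen forms in the plastid. EX1 is a thylakoid protein through which much of the nuclear answer to that singlet oxygen runs, and the series asks whether YDL1 restrains such changes in gene expression. Early answers to plastid singlet oxygen in flu plants are known to include transcription factors of the ERF, WRKY and zinc finger families, and oxidised plastid lipids feed the synthesis of jasmonate, a wound and defence hormone. Beside the first 30 min, the late step was used to sort genes by which steps passed a test. The step could be the first, the late one, or both, in the same or opposite directions. Such sorting does not show that a gene stood still in a step that did not pass.

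The 4 libraries held 7954268 and 11013392 counts at 60 min, replicates 1 and 2, and 9100369 and 11459749 counts at 30 min, replicates 1 and 3. Plastid loci took 68.7% and 65.5% of these counts at 60 min and 71.7% and 64.0% at 30 min, and over all 12 libraries the totals ran from 7859611 to 11591060. The factors by which TMM normalization rescaled the totals differed within the 60 min group. They were 0.70 and 1.20 at 60 min, replicates 1 and 2, and 0.88 and 0.90 at 30 min, replicates 1 and 3. Genes of green tissue dominated, with a summed level of 14940 to 22170 CPM, counts scaled to library size, for 24 genes of light harvesting and carbon fixation, against 8.57 to 13.7 CPM for 13 root markers and 0.498 to 2.50 CPM for 11 flower, pollen and seed markers, 2 of the root and 2 of the flower, pollen and seed markers being at 0 in all 4 libraries. FLU stood at 29.5 and 38.9 CPM at 60 min, against 42.0 and 46.5 CPM at 30 min, and EX1 at 5.36 and 2.81 CPM, against 2.64 and 4.08 CPM. Neither passed the test in edgeR, and as both genotypes carry both mutations these levels check no genotype. The reference names no locus YDL1, so its level could not be read. In whole plants, a lower level cannot be told apart from fewer cells of a type.

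Between 30 and 60 min, 97 of 17879 genes tested passed an adjusted p of 0.05 in edgeR's quasi-likelihood test, 0.543% of the genes tested. Of these, 96 were higher at 60 min (0.537%) and 1 was lower (0.00559%). Before adjustment 1400 genes had p under 0.05, 1002 of them higher and 398 lower, and the median log2 fold change of all genes was -0.0021. The 94 risen genes with counts at 30 min had log2 fold changes of 1.22 to 6.45, and the other 2 had none there, so their folds are lower bounds. With those 2 at their bounds the median of the 96 was 2.36, and 26 lay above 3. Most were scarce before the step, with a median over genes of 17.1 CPM at 60 min against 3.92 CPM at 30 min, while at 0 min the same genes had a median of 1.57 CPM. In all 96, both 60 min libraries lay above both 30 min libraries, an order that, in either direction, 5954 of the 17879 genes tested had. The count rests on each 30 min library: without replicate 1 it was 3 (IAR3, NDB2 and TAT3), without replicate 3 it was 12, without 60 min replicate 2 it was 59 and without 60 min replicate 1 it was 213. With times taken from the labels it was 0 in edgeR, with 628 genes at an unadjusted p under 0.05, and 51 of the 97 genes kept the sign of their step.

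**Figure D1:**
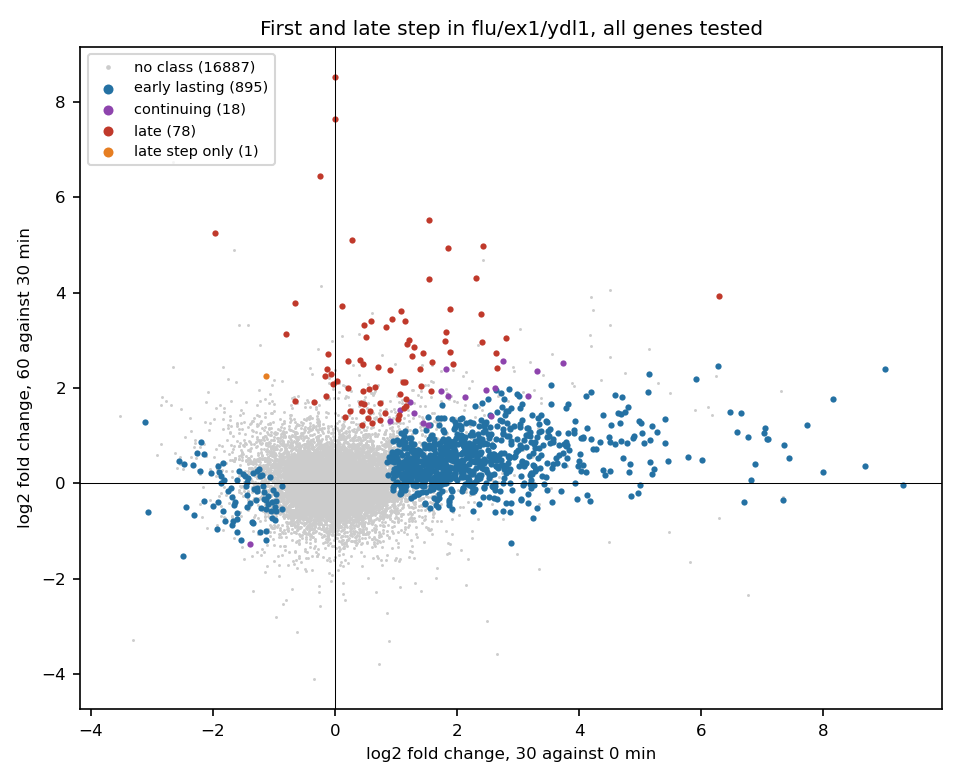
Log2 fold change of each of the 17879 genes tested in flu/ex1/ydl1, at 30 against 0 min (x axis) and at 60 against 30 min (y axis), coloured by time class. The 78 late genes have medians of 0.78 on the x axis and 2.51 on the y axis, and the 815 risen early lasting genes have medians of 2.09 on the x axis and 0.48 on the y axis; both axes use the 30 min libraries, so the axes are not independent.

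More jasmonate genes passed in the late step than genes of any other list. Of 28 genes tested from the jasmonate list 10 rose (35.7%, against 0.537% of all genes) and 0 fell. All 28 had a positive log2 fold change, as had 8909 of all 17879 genes, and their median was 1.64 against -0.0021 for all genes. The lists were chosen with earlier results of these data known. The 10 cover hormone synthesis (OPR3, ACX1, AOC1), the JAZ repressors that the hormone removes (JAZ2, JAZ5, JAZ6, JAZ7, JAZ9), hormone breakdown (CYP94C1) and a target gene (TAT3). All 10 were late genes, past the threshold at 60 against 30 min and at 60 against 0 min but not at 30 against 0 min.

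Among enzymes of jasmonate synthesis, OPR3, the peroxisomal reductase that turns the plastid-made precursor towards jasmonate, stood at 50.6 and 45.0 CPM at 60 min, replicates 1 and 2, against 8.54 and 8.95 CPM at 30 min, replicates 1 and 3. The groups are far apart, and at 0 min the gene had 6.64 and 4.05 CPM, and the 30 min libraries lie close to those. Its log2 fold change was 2.44 ± 0.29 (SE; edgeR adjusted p = 0.00136). AOC1, an allene oxide cyclase of the plastid, had 20.7 and 34.8 CPM at 60 min, against 3.14 and 6.13 CPM at 30 min, a log2 fold change of 2.57 ± 0.45 (edgeR adjusted p = 0.0119). ACX1, an acyl-CoA oxidase that shortens the side chain of the precursor, had 46.3 and 39.7 CPM at 60 min, against 13.8 and 13.03 CPM at 30 min, a log2 fold change of 1.68 ± 0.23 (edgeR adjusted p = 0.00292). Other steps of the pathway had moved earlier or passed no test. The lipoxygenase genes LOX3 and LOX4, the cyclase gene AOC3, OPCL1, which activates the precursor for side-chain shortening, and MYC2, the transcription factor that JAZ proteins hold back, were early lasting, as was JAZ1. LOX4, for example, averaged 3.54, 47.7 and 83.8 CPM at 0, 30 and 60 min, with a late step of 0.82 (edgeR adjusted p = 0.54). AOS, which starts the branch towards jasmonate, averaged 112, 130 and 256 CPM at 0, 30 and 60 min (late step 0.97, edgeR adjusted p = 0.36), and LOX2 averaged 28.8, 42.0 and 44.1 CPM.

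Of 10 JAZ repressor genes tested 5 rose in the late step. JAZ9 had 122 and 100 CPM at 60 min, against 31.5 and 31.3 CPM at 30 min, and 34.1 and 35.7 CPM at 0 min. Its first step was -0.15 ± 0.26 (edgeR adjusted p = 0.84), and its late step was 1.82 ± 0.26 (edgeR adjusted p = 0.00309). JAZ6 had 35.9 and 51.5 CPM at 60 min, against 8.16 and 11.57 CPM at 30 min, a log2 fold change of 2.15 ± 0.30 (edgeR adjusted p = 0.00292), JAZ2 rose by 2.01 ± 0.32 and JAZ5 by 2.37 ± 0.49 on the log2 scale. JAZ7 had 6.61 and 3.04 CPM at 60 min, against 0.126 and 0.0973 CPM at 30 min. With 77 counts at 60 min against 2 at 30 min the ratio was 37.5 with a 95% exact interval of 10.03 to 315, which covers counting error only. AT3G22275, annotated as a further jasmonate ZIM-domain protein, had 3.57 and 1.67 CPM at 60 min and no count at 30 or 0 min, at least 13.6-fold higher against a floor of 3 counts over the 30 min group. It overlaps AT3G22270 on the other strand, and whether the counting used strand is not given in the sources used here. JAZ8, JAZ10 and JAZ1 had late steps of 3.13, 1.83 and 1.65 without passing (edgeR adjusted p = 0.10, 0.13 and 0.053).

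IAR3, an amidohydrolase that splits amino acid conjugates of jasmonate and auxin, had the smallest adjusted p of the late step. The gene stood at 57.4 and 56.7 CPM at 60 min, against 6.16 and 7.39 CPM at 30 min, and 5.01 and 4.58 CPM at 0 min. The 2 libraries at each time nearly coincide, and the log2 fold change was 3.07 ± 0.33 (edgeR adjusted p = 0.000729). Its relative ILL6 had 24.7 and 24.6 CPM at 60 min, against 4.52 and 3.70 CPM at 30 min (2.59 ± 0.39, edgeR adjusted p = 0.00444). CYP94C1, a P450 that oxidises the active jasmonate conjugate, had 5.90 and 9.13 CPM at 60 min, against 0.628 and 0.778 CPM at 30 min (3.41 ± 0.61, edgeR adjusted p = 0.0139). AT5G05600, annotated as a 2-oxoglutarate and iron dependent oxygenase, had 56.5 and 45.6 CPM at 60 min, against 4.65 and 5.74 CPM at 30 min (3.28 ± 0.47, edgeR adjusted p = 0.00292). TAT3, a tyrosine aminotransferase gene known as a jasmonate target, had 18.8 and 19.2 CPM at 60 min, against 6.03 and 3.40 CPM at 30 min (2.03 ± 0.27, edgeR adjusted p = 0.00281). The count of 10 jasmonate genes was 1 without 30 min replicate 1 and 2 without 30 min replicate 3, and 7 and 12 without 60 min replicates 2 and 1.

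**Figure D2:**
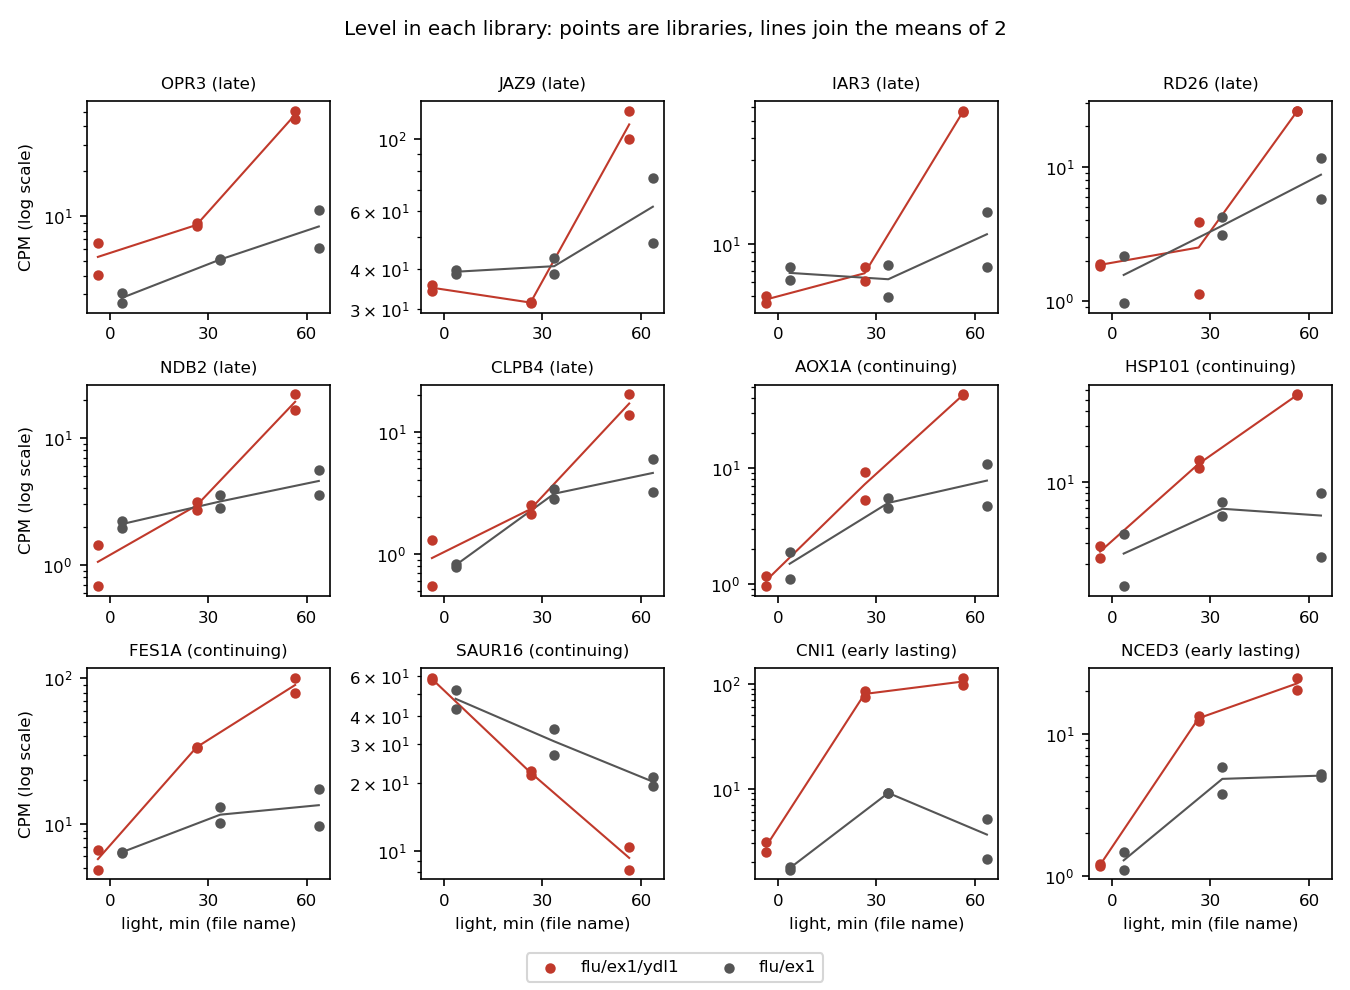
Level of 12 genes in each library, in CPM on a log axis, at 0, 30 and 60 min by file name, for flu/ex1/ydl1 (red) and flu/ex1 (grey); points are libraries, lines join the means of 2 libraries and the time class stands in brackets. In OPR3, JAZ9 and IAR3 the 2 red points at 60 min lie far above those at 30 min. Their steps from 0 to 30 min are smaller, whereas in CNI1 and NCED3 most of the rise is done by 30 min.

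Heat shock genes were the second group by number called, though by share (27.3%, against 0.537% of all genes) they stood below genes of mitochondrial stress (33.3%). Of 22 tested 6 rose and 0 fell, with a median of 1.58, and 4 of the 6 (HSP17.6II, HSP17.6A, HSP23.6-MITO and BAG6) were late while HSP101 and FES1A continued a rise begun by 30 min. HSP17.6II, a cytosolic small heat shock protein that keeps unfolded proteins soluble, had 1.07 and 7.30 CPM at 60 min and no count in either library at 30 or 0 min, at least 33.1-fold higher against a floor of 3 counts over the 30 min group (edgeR adjusted p = 0.0225). HSP17.6A, a small heat shock protein gene with a like name, had 2.14 and 14.2 CPM at 60 min, against 0.126 and 0.389 CPM at 30 min. Both small genes were several times higher in 60 min replicate 2 than in replicate 1. HSP23.6-MITO, a mitochondrial small heat shock protein, had 6.79 and 5.10 CPM at 60 min, against 0 and 0.0973 CPM at 30 min. With 105 counts against 1, its ratio was 102 with a 95% exact interval of 18.0 to 4074. BAG6, a co-chaperone gene, had 9.65 and 6.01 CPM at 60 min, against 1.26 and 0.681 CPM at 30 min (3.004 ± 0.60, edgeR adjusted p = 0.0266).

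The chaperones that continued were already raised. HSP101, the cytosolic machine that pulls proteins out of aggregates, had 2.85 and 2.22 CPM at 0 min, 13.1 and 15.3 CPM at 30 min and 54.1 and 55.4 CPM at 60 min. Its steps were 2.48 ± 0.49 from 0 to 30 min and 1.95 ± 0.41 from 30 to 60 min (edgeR adjusted p = 0.00402 and 0.0365), so it climbed in both. FES1A, a cofactor of HSP70 chaperones, averaged 5.74, 33.7 and 90.2 CPM at 0, 30 and 60 min, with a late step of 1.42 ± 0.28 (edgeR adjusted p = 0.0253). HSP90.1, HSP70 and ROF2 had late steps of 1.87, 1.77 and 1.77 that missed the threshold (edgeR adjusted p = 0.055, 0.13 and 0.15) and are early lasting by the calls. HSFA2, a heat shock factor, averaged 5.29, 14.03 and 49.7 CPM at 0, 30 and 60 min but passed in no late test (1.82, edgeR adjusted p = 0.39). Some called genes outside the list also have chaperone names, picked here from the calls and not counted against all such genes. CLPB4, the mitochondrial relative of HSP101, had 20.2 and 13.8 CPM at 60 min, against 2.51 and 2.14 CPM at 30 min (2.85 ± 0.36, edgeR adjusted p = 0.00211), and Hop3, a co-chaperone that joins HSP70 to HSP90, rose by 2.51 ± 0.51 (edgeR adjusted p = 0.0307). The genes AT5G51440, AT2G29500 and AT1G07400, annotated as HSP20-like chaperones, rose by 3.60, 3.17 and 3.04 on the log2 scale. The count of 6 was 1 with replicate numbers as a block, 0 without either 30 min library, and 3 without 60 min replicate 2.

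Genes that answer to impaired mitochondria were a further group, in which 3 of 9 tested rose (33.3%, against 0.537% of all genes) and 0 fell. All 9 were positive, as were 8909 of all 17879 genes, and the median was 1.29 against -0.0021 for all genes. AOX1A, the alternative oxidase that lets electrons bypass part of the respiratory chain, had 0.948 and 1.18 CPM at 0 min, 5.28 and 9.14 CPM at 30 min and 42.5 and 43.2 CPM at 60 min. It rose in both steps, by 2.76 and by 2.56 ± 0.35 (edgeR adjusted p = 0.00119 and 0.00281). NDB2, an external NADH dehydrogenase that feeds that bypass, had 16.4 and 21.98 CPM at 60 min, against 3.14 and 2.72 CPM at 30 min, a late step of 2.73 ± 0.32 (edgeR adjusted p = 0.00136). NDB2 and IAR3 were the 2 of the 97 genes that passed in every repeat of the test except that with labelled times. UGT74E2, a glucosyltransferase acting on an auxin precursor, had 5.54 and 9.58 CPM at 60 min, against 0.251 and 0.486 CPM at 30 min (4.30 ± 0.75, edgeR adjusted p = 0.0120). AT2G21640, annotated as a marker of the oxidative stress response, lies outside that list and was picked from the calls. It had 2.86 and 3.80 CPM at 60 min, against 0.126 and 0.584 CPM at 30 min (3.13 ± 0.65, edgeR adjusted p = 0.0363). DIC1 and DIC2, carriers of dicarboxylic acids, were early lasting, with means of 18.8, 207 and 229 CPM at 0, 30 and 60 min for DIC2. The count of 3 was 1 without 30 min replicate 1 and 2 without 30 min replicate 3 or 60 min replicate 2. The 52 mitochondria-encoded loci tested held no call and had a median of 0.07.

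Some stress transcription factors and signalling genes were also among the calls. Of 28 abscisic acid and drought genes 2 rose (7.14%, against 0.537% of all genes), with a median of 0.78 over the list. At an unadjusted edgeR p under 0.05, 16 of the 28 were higher and 2 lower. Without 30 min replicate 1 the count of 2 risen genes was 0, without 30 min replicate 3 it was 1, and without 60 min replicate 1 it was 5. RD26, a NAC factor of the drought response, had 26.1 and 26.0 CPM at 60 min, against 1.13 and 3.89 CPM at 30 min (3.32 ± 0.43, edgeR adjusted p = 0.00246). NAC3, a factor of the same family that answers to jasmonate and abscisic acid, had 7.5 and 6.84 CPM at 60 min, against 0.251 and 0.973 CPM at 30 min (3.44 ± 0.61, edgeR adjusted p = 0.0131). ANAC032, another NAC gene, averaged 2.33, 23.61 and 61.3 CPM at 0, 30 and 60 min and was early lasting (late step 1.38, edgeR adjusted p = 0.074). MAPKKK19, a kinase at the head of a MAP kinase cascade, had 6.79 and 5.40 CPM at 60 min, against 0.126 and 0.195 CPM at 30 min. Its 109 counts against 3 gave a ratio of 35.4 with a 95% exact interval of 11.8 to 174. Of 21 ethylene response factor genes 1 rose (4.76%). It was RRTF1, a redox-responsive factor, with 7.33 and 12.6 CPM at 60 min, against 2.01 and 2.24 CPM at 30 min (2.25 ± 0.41, edgeR adjusted p = 0.0141). RRTF1 overlaps the noncoding locus AT4G08985 on the other strand, which was also called, so the pair may share reads. ERF71, a factor of the low-oxygen response and outside that list, had 4.11 and 4.71 CPM at 60 min, against 0.126 and 0.292 CPM at 30 min (4.27 ± 0.75, edgeR adjusted p = 0.0120). CBL1, a calcium sensor, rose in both steps, the late one by 1.47 ± 0.29.

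Enzymes of tryptophan and indolic defence compounds rose by smaller amounts. Of 17 tested 3 rose and all 17 were positive, with a median of 0.89. ASA1 and ASB1, the 2 subunits of anthranilate synthase at the entry to tryptophan synthesis, rose by 1.27 ± 0.28 and 1.43 ± 0.28 (edgeR adjusted p = 0.0493 and 0.0249). ASB1 had 28.1 and 42.5 CPM at 60 min, against 13.1 and 13.2 CPM at 30 min. SOT16, a sulfotransferase of glucosinolate synthesis, had 18.6 and 13.7 CPM at 60 min, against 5.15 and 3.02 CPM at 30 min (1.98 ± 0.33, edgeR adjusted p = 0.00944). AKN2, an APS kinase that makes the sulfate donor and lies outside the list, rose by 1.23 ± 0.25. The P450 genes CYP79B3 and SUR2 of the same pathway had 0.96 and 0.94 without passing (edgeR adjusted p = 0.098 and 0.095). IGMT1, IGMT2, CYP81F2 and the regulator MYB51 were early lasting. The count of 3 was 0 without either 30 min library, 1 without 60 min replicate 2 and 1 with replicate numbers as a block.

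Of 31 antioxidant and detoxification genes 2 rose (6.45%, against 0.537% of all genes), with a median of 0.48. CYP81D8, a P450 of xenobiotic and oxidative stress responses, had 26.4 and 47.4 CPM at 60 min, against 2.51 and 6.61 CPM at 30 min (2.99 ± 0.52, edgeR adjusted p = 0.0120), and GSTU5, a glutathione transferase, had 66.5 and 118 CPM at 60 min, against 28.1 and 30.4 CPM at 30 min (1.66 ± 0.31, edgeR adjusted p = 0.0160). Both were late. ABCG40, an abscisic acid importer, had 23.8 and 32.5 CPM at 60 min, against 1.26 and 6.91 CPM at 30 min (2.74 ± 0.51, edgeR adjusted p = 0.0180). GA2OX6, which inactivates gibberellin, rose in both steps and had 19.7 and 18.1 CPM at 60 min, against 4.90 and 4.96 CPM at 30 min (1.93 ± 0.29, edgeR adjusted p = 0.00444). VTC5, an enzyme of vitamin C synthesis, rose in both steps as well, the late one by 1.303 ± 0.23. TPS04, a terpene synthase, and FAMT, a methyltransferase of farnesoic acid, rose by 3.64 ± 0.61 and 3.54 ± 0.58, ARGAH2, an arginase, by 1.70 ± 0.35, and A/N-InvC, an invertase that splits sucrose, by 2.29 ± 0.34. DIN11 was the 1 risen gene of 20 induced in darkness and starvation (5%, against 0.537% of all genes). It had 2.32 and 8.75 CPM at 60 min, against 0.251 and 0.584 CPM at 30 min (3.72 ± 0.73, edgeR adjusted p = 0.0248). Among the largest rises were also loci with no known role. AT5G24640, an uncharacterized protein, had 13.4 and 8.06 CPM at 60 min, against 0 and 0.389 CPM at 30 min (5.52 ± 0.90, edgeR adjusted p = 0.00835), and AT4G12735, likewise uncharacterized, had 14.3 and 15.3 CPM at 60 min, against 0.377 and 1.46 CPM at 30 min (3.92 ± 0.69, edgeR adjusted p = 0.0140). For neither do the groups overlap. TIN1, a gene induced when protein folding fails in the endoplasmic reticulum, was the 1 of 19 in its list that rose (5.26%, against 0.537% of all genes). Its late step was 2.51 ± 0.54 (edgeR adjusted p = 0.0431).

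A single gene fell in the test as set out above. SAUR16, a small auxin-induced gene of a family that promotes cell expansion, had 57.7 and 59.1 CPM at 0 min, 21.9 and 22.8 CPM at 30 min and 10.4 and 8.21 CPM at 60 min. It fell in both steps in edgeR, by 1.39 and by 1.28 ± 0.26 on the log2 scale (edgeR adjusted p = 0.00151 and 0.0273), and the 3 times do not overlap. The late call was lost with times from the labels, with the replicate block (edgeR adjusted p = 0.080), with the groups compared alone (0.070), with the 6 flu/ex1/ydl1 libraries alone (0.055) and without 30 min replicates 1 or 3 or 60 min replicate 2 (0.28, 0.17 and 0.25), while the log2 fold change stayed between -1.39 and -1.002 in every setting. The number of genes that fell was 23 with no filter on low counts and 12 without 60 min replicate 1. Over the 30 tested genes of auxin response and growth the median late step was -0.30, with 10 positive, against 8909 of all 17879 genes. SAUR14 and SAUR50, of the same family, and EXPA1, a cell wall expansin, had late steps of -1.02, -1.11 and -0.93 without passing (edgeR adjusted p = 0.15, 0.17 and 0.15). EXPA1 averaged 104 CPM at 60 min against 197 CPM at 30 min.

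**Figure D3:**
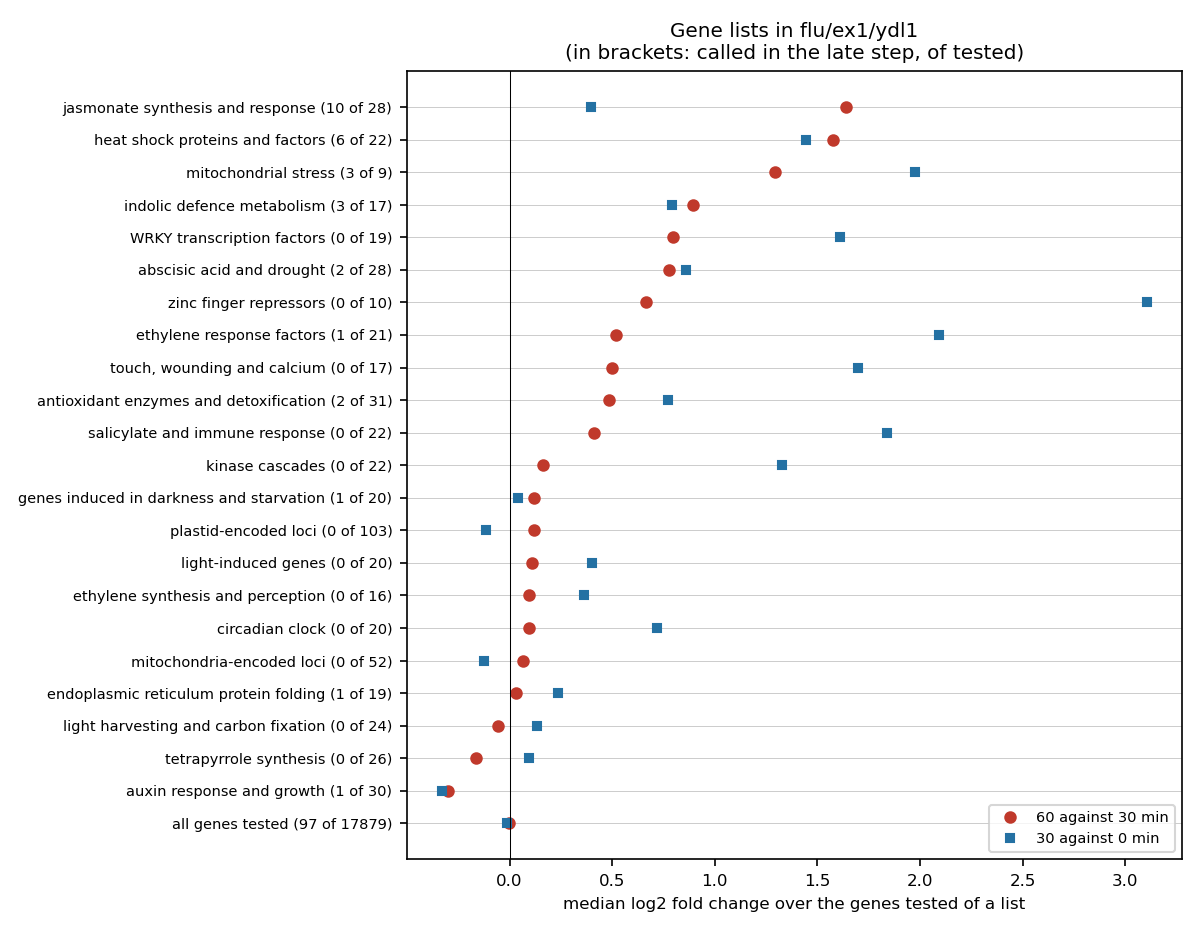
Median log2 fold change in flu/ex1/ydl1 over the tested genes of each list at 60 against 30 min (circles) and at 30 against 0 min (squares), with the number called in the late step, of the number tested, in brackets. Jasmonate genes sit at 1.64 in the late step against 0.40 in the first, and zinc finger genes at 0.66 against 3.10; both comparisons use the 30 min libraries.

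In transcription factor families known from early singlet oxygen responses, many genes had passed already at 30 against 0 min. At 30 against 0 min, 964 genes passed (5.39%), 857 higher and 107 lower, and at 60 against 0 min 2283 passed (12.8%), 1717 higher and 566 lower. Of 19 WRKY genes 13 were higher at 30 against 0 min and 0 passed in the late step, where their median was 0.80. Of 10 zinc finger repressor genes 8 were higher at 30 against 0 min and 0 passed in the late step (median 0.66). Since 0.543% of all genes passed there, 0 in lists of this size does not show that the rise had ended. At an unadjusted edgeR p under 0.05, 9 of 19 WRKY and 7 of 21 ethylene response factor genes rose further. Of the zinc finger genes 1 of 10 did so, against 1002 of all 17879 genes. At 30 against 0 min the ethylene response factors counted 11 higher of 21 and salicylate and immune genes 14 of 22. Kinase cascade genes counted 12 of 22 and touch, wounding and calcium genes 9 of 17. Apart from RRTF1 none of these listed genes passed in the late step, and MAPKKK19 and CBL1, which did, are outside the lists. ZAT11, a zinc finger repressor, had 0.406 and 0 CPM at 0 min, 20.1 and 37.8 CPM at 30 min and 37.7 and 72.9 CPM at 60 min. OXI1, a kinase gene switched on by oxidants, had 0.136 and 0.131 CPM at 0 min, 13.6 and 24.2 CPM at 30 min and 31.3 and 46.9 CPM at 60 min. The 60 and 30 min libraries of ZAT11 overlap and those of OXI1 do not, and the late steps of ZAT11 and OXI1, 0.94 and 1.05, did not pass (edgeR adjusted p = 0.69 and 0.58). ERF1A and WRKY28, at 1.96 and 1.59, came closer to the threshold (edgeR adjusted p = 0.088 and 0.079).

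By the calls, 78 genes were late and higher, 0 were late and lower, 17 continued upwards and 1 downwards, and 1 (AT5G08135, a noncoding locus that overlaps the called gene AT5G54170) passed in the late step alone. No gene was transient, that is, past the threshold in both steps in opposite directions. Early lasting genes, past the threshold at 30 and at 60 against 0 min but not in between, numbered 815 higher and 80 lower. The 3 comparisons share libraries, so these counts carry no test. Genes that passed at 30 against 0 min and in neither other comparison numbered 25 higher and 26 lower, and those that passed at 60 against 0 min and in neither step 807 higher and 485 lower. Among early lasting genes that rose, the median level was 3.28, 13.2 and 19.5 CPM at 0, 30 and 60 min, and 281 of 815 had an unadjusted p under 0.05 for a further rise. Among late genes it was 1.57, 3.11 and 16 CPM, and 64 of the 78 were already positive at 30 against 0 min, 27 of them with an unadjusted p under 0.05. Late therefore names genes whose first step missed the threshold, not genes shown to be still at 30 min.

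CNI1, a ubiquitin ligase gene, is an example of an early lasting gene, with 3.12 and 2.49 CPM at 0 min, 74.6 and 85.6 CPM at 30 min and 96.5 and 114 CPM at 60 min. Its late step was 0.40 (edgeR adjusted p = 0.88). NCED3, the enzyme that commits carotenoids to abscisic acid, had 1.22 and 1.18 CPM at 0 min, 13.4 and 12.3 CPM at 30 min and 24.8 and 20.5 CPM at 60 min (late step 0.81, edgeR adjusted p = 0.21). FRB1, AR781 and EDA39, a calmodulin-binding protein gene, had late steps of 1.05, 0.98 and 0.32. Among early lasting falls, ARR9, a response regulator of cytokinin signalling, averaged 33.1, 16.3 and 10.1 CPM at 0, 30 and 60 min, and EXL5 averaged 41.6, 11.9 and 6.96 CPM. Without 0 min replicates 1 or 3 or 30 min replicate 3 the early lasting count of 895 was 549, 418 and 484. Without 30 min replicates 1 or 3 or 60 min replicate 2 the late count of 78 was 3, 9 and 48.

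Genes of the pigment pathway and of photosynthesis gave no call in the late step. As only 0.543% of all genes were called there, 0 calls in lists of this size do not set them apart. Of 26 genes of tetrapyrrole synthesis 0 passed and the median was -0.16, and of 24 light harvesting and carbon fixation genes 0 passed with a median of -0.05. FC1, a ferrochelatase that makes haem, averaged 15.2, 123 and 159 CPM at 0, 30 and 60 min and was early lasting, as was HEMA2, which makes the first precursor of the pathway. LHB1B1, a light-harvesting protein gene, had 325 and 268 CPM at 60 min, against 444 and 408 CPM at 30 min, groups that do not overlap (-0.52, edgeR adjusted p = 0.68). ELIP1 and ELIP2, whose products protect against excess light, had late steps of 0.75 and 0.87 (edgeR adjusted p = 0.34 and 0.17). The 103 plastid-encoded loci tested held no call and had a median of 0.12, and the 20 clock genes likewise (median 0.09).

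The same step in flu/ex1, the genotype without the ydl1 mutation, gave 0 calls in edgeR (0%), 1360 genes at an unadjusted p under 0.05 and 16 calls in DESeq2. ATCTH and GASA6 had the smallest p, at 2.23 and -1.76 (edgeR adjusted p = 0.053 and 0.079). The 96 genes that rose in flu/ex1/ydl1 had a median of 0.47 in flu/ex1 with 77 positive (80.2%), against 50.7% of all genes, and 23 of them reached an unadjusted p under 0.05 there. That lean rests on 1 library, since 90 of the 96 were higher in flu/ex1 60 min replicate 3 than in replicate 1. Without replicate 3, 38 of 96 were positive (39.6%) and the median was -0.07. OPR3 had 6.12 and 11.0 CPM at 60 min, replicates 1 and 3, against 5.19 and 5.08 CPM at 30 min in flu/ex1 (0.73, edgeR adjusted p = 0.63), IAR3 had 7.38 and 15.2 CPM against 7.54 and 4.98 CPM (0.85, edgeR adjusted p = 0.58), and AOX1A had 4.73 and 10.8 CPM against 4.50 and 5.48 CPM (0.63, edgeR adjusted p = 0.69). HSP101 had 2.27 and 8.01 CPM against 6.66 and 5.08 CPM (-0.20, edgeR adjusted p = 0.92). In each of these 4 genes every 60 min library of flu/ex1 lay below both 60 min libraries of flu/ex1/ydl1. The 4 were picked from genes that were high in those flu/ex1/ydl1 libraries, so this order is a description and no test of genotype.

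The difference of the 2 late steps, flu/ex1/ydl1 minus flu/ex1, was tested for every gene, and 0 passed in edgeR (0%), with 1087 genes at an unadjusted p under 0.05, 714 higher and 373 lower, and 31 calls in DESeq2. The smallest p belonged to PP2-B14, a gene of the phloem protein family, ANAC032 and AT5G53750, annotated as a CBS domain protein, at 4.66, 2.52 and 2.33 (edgeR adjusted p = 0.25 for each). PP2-B14 had 30.2 and 47.8 CPM at 60 min against 14.4 and 22.7 CPM at 30 min in flu/ex1/ydl1, and 0.126 and 0.0703 CPM at 60 min against 0.685 and 1.99 CPM at 30 min in flu/ex1. For the 96 risen genes the difference was positive in all 96, with a median of 1.85, and 81 had an unadjusted p under 0.05. These genes were picked for their rise in flu/ex1/ydl1, which the difference contains, so this is a description. For jasmonate genes the median difference was 1.12, for heat shock genes 1.28 and for mitochondrial stress genes 1.47, against 0.01 for all genes. Such medians were not particular to these lists. WRKY genes had 1.16, ethylene response factors 1.15, indolic defence genes 1.06 and zinc finger repressors 1.02. Tetrapyrrole genes had -0.29, and light harvesting and carbon fixation genes -0.10. OPR3, IAR3 and NDB2 had differences of 1.72 ± 0.42, 2.22 ± 0.45 and 2.198 ± 0.45 (edgeR adjusted p = 0.35, 0.25 and 0.25). Without flu/ex1 60 min replicate 3 the number of genes that differed was 46, and without flu/ex1/ydl1 60 min replicate 1 it was 6.

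**Figure D4:**
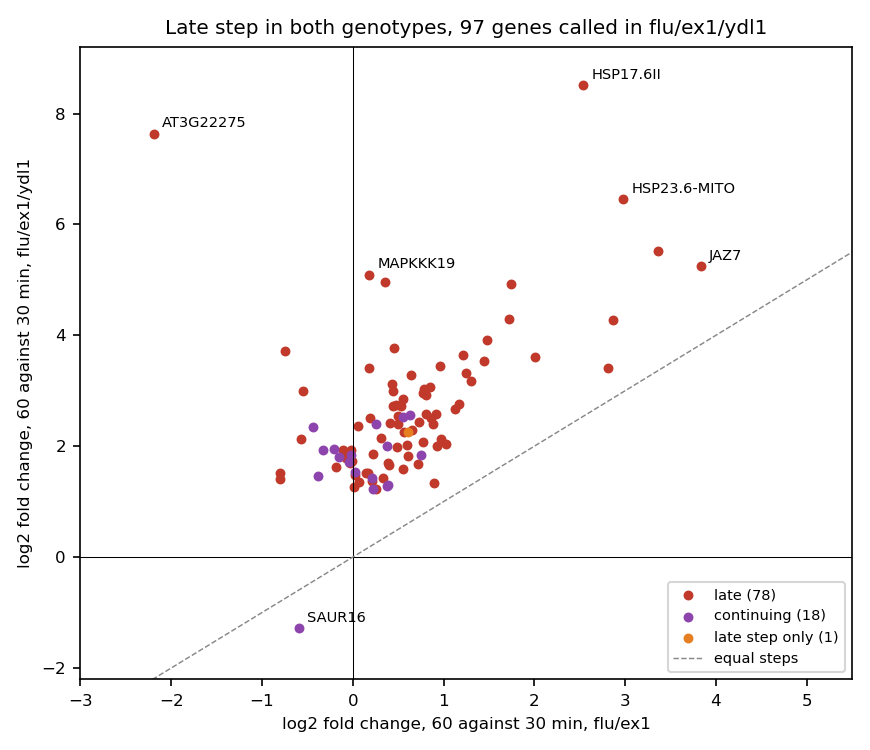
Late step of the 97 genes called in flu/ex1/ydl1, as log2 fold change at 60 against 30 min in flu/ex1/ydl1 (y axis) and in flu/ex1 (x axis), coloured by time class, with a dashed line of equal steps. All 96 risen genes lie above the line; they were chosen by the value on the y axis.

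Several called loci may not be separate observations. Of the 96 risen genes 9 overlap another risen locus, among them AT5G56980 and AT5G56985, AT5G53048 and AT5G53050, and AT5G54165, AT5G54170 and AT5G08135, and the annotation, strand setting and handling of reads from near-identical genes are not given in the sources used here. Values of small heat shock genes, glutathione transferases and other close relatives carry the same doubt.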

How the data were processed

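Total RNA was sequenced from 12 libraries. The deposited tables, 1 per sample, hold unnormalized counts for 36917 loci, made by the authors with Trimmomatic, FastQC, TopHat2 2.1.1 and featureCounts on the build TAIR10, per the submitters' processing notes. Symbols and overlaps come from a TAIR10.1 reference, which held 36632 loci. Libraries were grouped by genotype and file-name time, and 1 model of 6 groups was fitted to all 12 with edgeR 4.0.16 in R 4.3.3 (TMM, quasi-likelihood, filterByExpr with a minimum count of 10 and total of 15, Benjamini-Hochberg over 17879 genes, threshold 0.05). CPM are counts per TMM-scaled library total, plastid counts included. The code was tested on simulated counts. Intervals cover counting error only. The members and the 22 gene lists were chosen with earlier results of these data known. Of 524 listed genes 14 were dropped, because the reference gave the symbol no single matching locus. Named by rule were the 15 largest rises and falls that passed, averaging 1 CPM or more without overlap of the groups, up to 5 genes per list and per time class by p, and the 3 smallest p where none passed, and from these a selection is printed. ILL6, AT5G05600, Hop3, ABCG40, VTC5, FAMT, ARGAH2, A/N-InvC, CBL1, AKN2 and other genes outside the rule were added after their values were seen. DESeq2 1.42.0 and the other alternatives follow in the closing section. Promoter and protein sequences were not used here.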

Additional observations from a re-analysis of the deposited data

How the results depend on the processing

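All 97 genes of the late step kept their sign in every setting in which they were tested, except with times from the labels. This was largely fixed in advance and is no separate support. The 97 were picked by this step, and their 60 and 30 min libraries did not overlap. Leaving out 1 library could therefore hardly turn a sign, and the other settings used the same libraries. The count of 97 was 119 in DESeq2 (87 of them among the 97), 100 with DESeq2's size factors in edgeR, 404 with no filter on low counts, 100 with nuclear genes only, 135 with the form of the file name as a block, 120 with libraries thinned to the lowest nuclear count, 120 with the groups compared alone and 126 with the 6 flu/ex1/ydl1 libraries alone, a setting chosen after seeing the data. Leaving out 1 library gave 3 to 213. Replicate numbers do not pair these libraries, since 60 and 30 min share number 1 alone; with a replicate block the count was 89, of which 64 were among the 97, and the continuing count was 29. The late count of 78 was 182 with no filter and 43 with the groups compared alone, and 3 to 116 with 1 library left out. The continuing count of 18 was 38 in DESeq2, 197 with no filter, 40 with the file name block, 36 with the groups compared alone and 41 with the 6 libraries alone, and 0 to 93 with 1 library left out. The transient count of 0 was 7 with no filter. With 1 library left out, the early lasting count of 895 was 418 to 911, the 964 genes at 30 against 0 min were 438 to 1092, and the 2283 at 60 against 0 min were 1427 to 2419. The lowest of these 3 came without flu/ex1/ydl1 0 min replicate 3. In flu/ex1 the late-step count of 0 was 16 in DESeq2, 72 with no filter, 1 with nuclear genes only, 1 with the file name block, 1 after thinning, 2 with the groups compared alone and 0 to 2 with 1 library left out. The difference count of 0 was 31 in DESeq2, 120 with no filter and 0 to 46 with 1 library left out. With times from the labels every count, of the late step, of 30 and 60 against 0 min and of the classes, was 0 in edgeR, and the late steps of these genes changed sign, as log2 fold changes: A/N-InvC -0.14, ABCG40 -0.18, AOC1 -0.64, AR781 -0.19, ASA1 -0.11, ASB1 -0.22, AT1G07400 -0.89, AT2G21640 -0.54, AT2G29500 -0.39, AT4G08985 -0.86, AT4G12735 -0.076, AT5G08135 -1.14, AT5G51440 -0.43, AT5G54170 -0.12, CYP79B3 -0.015, CYP81D8 -0.61, CYP94C1 -0.67, DIN11 -1.85, ERF1A -0.31, ERF71 -0.32, FAMT -1.38, GSTU5 -0.55, HSP17.6A -2.69, HSP17.6II -3.15, ILL6 -0.030, JAZ10 -0.65, JAZ5 -0.53, JAZ6 -0.41, JAZ8 -0.61, LHB1B1 0.047, NDB2 -0.37, RRTF1 -0.80, TAT3 -0.063, TIN1 -0.55, TPS04 -0.81 and UGT74E2 -0.85. The cause was not tested. With 2 libraries a group and 2469353 nuclear counts in the shallowest library, genes under about 1 CPM rest on few counts.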
